A study of Mus musculus with 12 samples.

Results

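The mitosis genes described here are 48 genes of the mouse whose products carry a cell through chromosome segregation and division. They were listed by symbol, from kinases and cyclins to condensin and cytokinesis genes, and each was followed through the brightest array probe set that names that gene alone. Such a probe set existed for 47 of the 48, and Ccnb1 was not analysed here. All 47 lay above the filter on dim probe sets, which 62.25% of the 18193 genes named on the array passed. The 47 are therefore 47 of the 11325 genes tested.

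The RNA came from splenocytes of DBA/2 mice aged 10 weeks, kept for 9 days with tumour cells of the KLN-205 line, a lung squamous carcinoma of the mouse, and with interleukin-2 at 100 units/mL every 3 days. In every group, control included, the tumour cells were KLN-205KD cells, which carry a knockdown of SEMA3A, a secreted semaphorin. In the SEMA6A group those cells also overexpressed SEMA6A, a semaphorin that spans the membrane. The SEMA3A group received purified SEMA3A at 10 µg/mL, the SEMA6A+SEMA3A group had both factors, and the control group had neither. Each of the 4 groups had 3 arrays. The labels do not say whether these came from separate mice or cultures, so p-values measure only the spread between these samples.

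Interleukin-2 drives T cells and natural killer cells to divide, and dividing cells transcribe mitosis genes late in the cell cycle, in G2 and M phase. Entry into mitosis depends on the kinase CDK1 and its cyclins. A checkpoint then holds sister chromatids together until every kinetochore is attached to the spindle, after which the anaphase-promoting complex marks securin and cyclin B for destruction. In a bulk sample, fewer dividing cells and less RNA per cell cannot be told apart.

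Many genes of this class share 2 short promoter elements, the cell cycle homology region, written TTTGAA, and the CCAAT box. Both were searched on both strands, as TTTGAA or TTCAAA and as CCAAT or ATTGG, from 250 bases before to 50 after the gene start in RefSeq's GRCm38.p6 promoters. Such a promoter was matched for 40 of the 48 genes, and not for Ccna2, Cdc25c, Aurkb, Incenp, Tpx2, Smc4, Kif20a and Foxm1. TTTGAA was present in 28 of the 40 (70%), in 41.6% of 89 promoters of other mitotic genes and in 18.1% of 27025 promoters of all genes. CCAAT was present in 29 (72.5%), in 59.6% of the other mitotic promoters and in 38% of all promoters. Both elements stood together in 25 of the 40 (62.5%), in 29.2% of the other mitotic promoters and in 7.15% of all promoters, and in 1 of the 25 members they shared a base. Within 50 bases of the start on either side, TTTGAA began in 25 of the 40 (62.5%), against 4.95% of all promoters. A match of letters is a description and not a measured binding site.

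The promoters of Cdc20, Ccnb2, Kif11, Mki67 and Nuf2 are shown because each of these genes had the smallest unadjusted p of the 47 in 1 of the 6 comparisons below. The gene with the smallest p in the remaining comparison, Nusap1, has neither element. Each sequence runs 5′ to 3′ along the gene's strand, from 200 bases before to 20 bases after the start, and capitals mark the 2 elements on either strand. Cdc20 lies at chr4:118437324-118437543 on the minus strand, Ccnb2 at chr9:70421535-70421754 on the minus strand, and Kif11 at chr19:37376182-37376401 on the plus strand. Mki67 lies at chr7:135716360-135716579 on the minus strand and Nuf2 at chr1:169531445-169531664 on the minus strand.
Cdc20: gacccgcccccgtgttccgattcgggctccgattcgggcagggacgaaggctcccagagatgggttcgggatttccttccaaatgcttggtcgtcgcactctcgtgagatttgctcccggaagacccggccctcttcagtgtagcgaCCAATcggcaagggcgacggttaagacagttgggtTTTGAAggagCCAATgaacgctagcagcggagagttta
Ccnb2: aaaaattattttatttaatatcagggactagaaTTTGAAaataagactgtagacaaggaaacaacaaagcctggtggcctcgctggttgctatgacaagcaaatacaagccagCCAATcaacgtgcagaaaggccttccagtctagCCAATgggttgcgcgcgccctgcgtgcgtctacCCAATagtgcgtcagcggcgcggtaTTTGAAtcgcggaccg
Kif11: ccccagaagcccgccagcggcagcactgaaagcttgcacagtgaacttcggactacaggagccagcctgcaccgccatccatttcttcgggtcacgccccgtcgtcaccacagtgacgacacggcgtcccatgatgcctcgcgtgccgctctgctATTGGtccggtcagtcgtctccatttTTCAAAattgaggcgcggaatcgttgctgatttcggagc
Mki67: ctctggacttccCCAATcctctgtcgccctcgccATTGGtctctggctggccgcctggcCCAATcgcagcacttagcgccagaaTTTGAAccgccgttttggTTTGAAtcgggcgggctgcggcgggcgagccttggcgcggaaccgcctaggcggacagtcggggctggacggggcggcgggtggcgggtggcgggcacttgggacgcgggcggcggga
Nuf2: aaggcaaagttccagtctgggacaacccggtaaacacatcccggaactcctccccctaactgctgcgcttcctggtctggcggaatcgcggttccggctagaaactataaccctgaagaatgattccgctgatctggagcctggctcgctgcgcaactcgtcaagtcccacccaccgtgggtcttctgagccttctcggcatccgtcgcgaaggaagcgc
In Cdc20 and Kif11 the TTTGAA element begins 18 and 19 bases before the start. Ccnb2 has 2 such elements, of which the nearer begins at base 5 counted from the start, and 3 CCAAT boxes. Mki67 has 2 and 3, all before the start. The window of Nuf2 holds neither element, and a missing match says only that these letters are not there.

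The cultures carried T cell RNA on every array, though Cd4 lay below the filter, at 4.01 to 13. Of 6 natural killer cell markers 5 passed it. Among these Gzma spanned 31400 to 46400 and Ncr1 only 40 to 180, so natural killer cell RNA was not established. Of 11 T cell markers 8 passed the filter, with a summed signal of 39700 to 50580 in the SEMA6A group, 47490 to 50990 in the SEMA3A group, 44330 to 46600 with both factors and 41250 to 48260 in control. Squamous carcinoma markers, which the tumour cells could bring, passed in 12 of 18 and summed to 2786 to 4170, 2595 to 3432, 2868 to 3230 and 2759 to 3235 in the same order. The defining squamous genes Krt14 and Trp63 lay below the filter, and Krt5 and Krt6a passed it with group means of 54.5 to 60.2 and of 105 to 121. Krt19 averaged 157 in the SEMA6A group, 142 in the SEMA3A group, 58.8 with both factors and 33.3 in control. Not all these markers ran that way. The brightest, Cdh1 and Epcam, averaged 1420 and 872 with SEMA6A, 1141 and 982 with SEMA3A, 1476 and 708 with both factors. In control they averaged 1356 and 873. Perp was lower with SEMA6A (200) and SEMA3A (178) than in control (225), and was 255 with both factors. Of the markers of other blood cells, 4 of 7 for mast cells and basophils passed, 4 of 9 for macrophages and monocytes, and none of the 5 neutrophil markers on the array. The mast cell and basophil sum was 2638 to 4286 in the SEMA6A group, 3119 to 5619 in the SEMA3A group, 2776 to 3323 with both factors and 2708 to 3442 in control. The highest squamous sum was on SEMA6A replicate 2. On that array the ratio of the 3′ to the 5′ probe set of Gapdh, a sign of RNA quality, was 1.22, against 0.767 to 0.818 on the other 11. The transferrin receptor ratio was 8.392, 35.67 and 23.31 in the SEMA6A group and 17.23, 17.59 and 18.06 in the SEMA3A group. It was 12.23, 5.933 and 11.21 with both factors and 6.822, 8.406 and 9.34 in control, all below every SEMA3A array. The pyruvate carboxylase ratio was 6.857, 15.52 and 10.29 in the SEMA6A group. In the SEMA3A group it was 5.778 to 6.895, below the 7.014 to 8.261 of control. SEMA6A replicate 2 was the lowest of the 12 arrays for 19 of the 47 mitosis genes (40.4%), against 19.9% of all genes, and the highest for 12 (25.5%), against 26.4% of all genes. The part of RNA quality and of tumour cell RNA in the values below was not tested. A single difference quoted below that moves by over 1.5 times without this array is given both ways, and ranges of differences are over all 12 arrays.

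The mitosis genes were at similar levels in all 4 groups. Their group means spanned a median of 0.21 on the log2 scale, against 0.27 for all genes. Their arrays within a group also varied less, with a median SD of 0.13 against 0.19 for all genes. Neither comparison was matched for signal. The 47 averaged 278 (Cdc25c) to 12822 (Top2a), whereas the filter for all genes lay at array medians of 42.52 to 53.51. The widest span was 0.49, for Foxm1, with SEMA6A replicate 2 in it, and none of the 47 exceeded 0.5, as 16.8% of all genes did. Averaged over the 47, the deviation from each gene's mean over 12 arrays was -0.0248 ± 0.0798 in the SEMA6A group, -0.0354 ± 0.0403 in the SEMA3A group, 0.0474 ± 0.0307 with both factors and 0.0129 ± 0.0326 in control (log2, SD, n = 3 each). The SEMA3A arrays, at -0.0749 to 0.0056, lay below those with both factors, at 0.0196 to 0.0804. All other pairs of groups overlapped. None of the 47 passed an adjusted p of 0.05 in any of the 6 comparisons fitted with limma, and neither did any of the 11325 genes (0%).

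**Figure D1:**
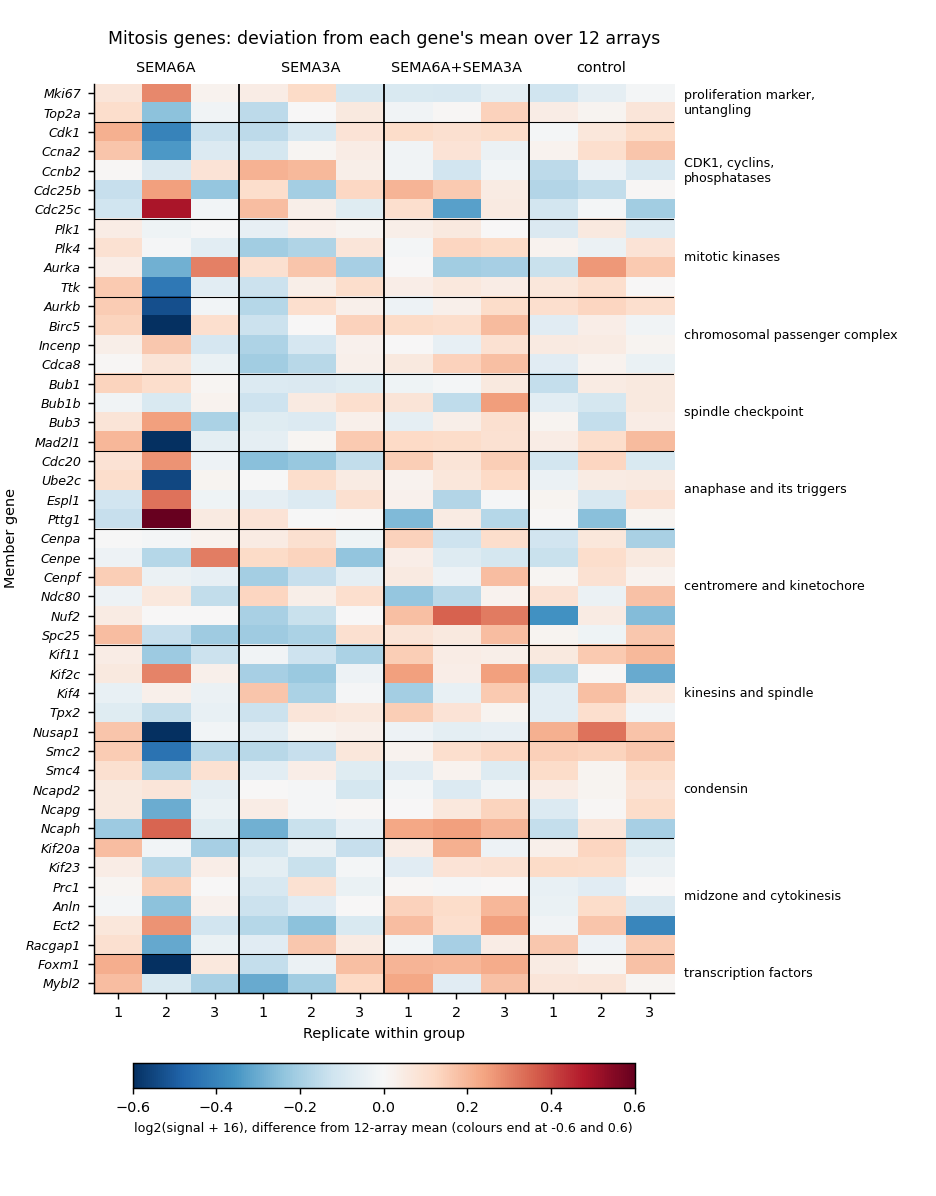
Heat map of the 47 mitosis genes (rows, by role) on the 12 arrays (columns, by group and replicate). Colour gives log2(signal + 16) after quantile normalization minus the gene's mean over the 12 arrays. SEMA6A replicate 2 holds both the deepest blue cells (Foxm1, Mad2l1, Nusap1, Birc5) and the deepest red one (Pttg1).

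The signals below are the deposited linear values, given for replicates 1 to 3 of each group. A higher signal from one probe set than from another does not mean more RNA. Differences and their standard errors come from limma on the log2(signal + 16) scale, where a difference of 1 is a 2-fold change and changes of dim genes are understated. A range of differences spans the 5 comparisons between pairs of groups: each of the 3 treated groups against control, and both factors against each alone.

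Mki67, the proliferation marker that coats mitotic chromosomes, was at 10433, 11954 and 9928 in the SEMA6A group, 10204, 10664 and 9194 in the SEMA3A group, 9307, 9308 and 9492 with both factors and 8717, 9245 and 9759 in control. All SEMA6A arrays lay above all control arrays and above all arrays with both factors. The difference of SEMA6A from control was 0.19 ± 0.081 (log2, SE; adjusted p = 0.475). Between both factors and SEMA6A alone it was -0.21 ± 0.081 (adjusted p = 0.424). Neither passed, and without SEMA6A replicate 2 they were 0.11 and -0.13. Top2a, the topoisomerase that untangles sister chromatids, was among the brightest of the 47, at 13760, 10638 and 12499 in the SEMA6A group, 11392, 12861 and 13547 in the SEMA3A group, 12814, 13157 and 13910 with both factors and 12818, 12613 and 13854 in control. Its groups overlapped in all pairs, with differences between -0.10 and 0.10.

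Among the genes of CDK1 and its partners, the kinase gene Cdk1 itself was at 8405, 5314 and 6488 in the SEMA6A group, 6368, 6658 and 7627 in the SEMA3A group, 7721, 7691 and 7817 with both factors and 6967, 7515 and 7754 in control. Both its highest and its lowest array were in the SEMA6A group. All 3 arrays with both factors lay above the SEMA3A arrays, by 0.16 ± 0.12. Ccnb2, a mitotic cyclin that activates CDK1, was at 4782, 4411 and 4960 in the SEMA6A group, 5381, 5316 and 4860 in the SEMA3A group, 4636, 4305 and 4701 with both factors and 4184, 4623 and 4455 in control. Every SEMA3A array lay above every control array and above every array with both factors. The difference of SEMA3A from control was 0.24 ± 0.0795 (95% interval 0.067 to 0.41, adjusted p = 0.551), and that of both factors from SEMA3A was -0.20 ± 0.0795 (adjusted p = 0.417).

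Ccna2, the cyclin that acts from S phase into mitosis, had differences between -0.18 and 0.09. The phosphatase genes Cdc25b and Cdc25c, whose products remove the inhibitory phosphates from CDK1, lay between 0.06 and 0.24 and between -0.18 and 0.23. Cdc25c was the dimmest member, at 244, 395 and 280 in the SEMA6A group, 322, 291 and 252 in the SEMA3A group, 292, 218 and 279 with both factors and 262, 270 and 228 in control. Its highest value was that of SEMA6A replicate 2.

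Of the mitotic kinases, Plk1, which acts from spindle assembly to cytokinesis, was the steadiest of the 47. It was at 2707, 2569 and 2562 in the SEMA6A group, 2472, 2630 and 2659 in the SEMA3A group, 2668, 2685 and 2620 with both factors and 2441, 2723 and 2484 in control. All its group means lay within 0.067 of each other (log2). Plk4, which starts centriole duplication, had differences between -0.13 and 0.18, Aurka, which matures spindle poles, between -0.23 and -0.07, and the checkpoint kinase Ttk between -0.17 and 0.16.

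The chromosomal passenger complex corrects wrong attachments of chromosomes to the spindle. Its kinase gene Aurkb was at 2807, 1732 and 2464 in the SEMA6A group, 2193, 2647 and 2569 in the SEMA3A group, 2434, 2530 and 2698 with both factors and 2657, 2736 and 2708 in control. SEMA6A replicate 2 was again the lowest array. Cdca8, which encodes the subunit borealin, was at 6390, 6541 and 6045 in the SEMA6A group, 5392, 5504 and 6512 in the SEMA3A group, 6591, 6881 and 7224 with both factors and 5924, 6359 and 6270 in control. With both factors every array lay above every SEMA3A and every control array, and the difference from SEMA3A was 0.24 ± 0.078 (adjusted p = 0.404). Birc5, the survivin gene, and Incenp, the scaffold, had differences between -0.11 and 0.26 and between -0.13 and 0.10.

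Of the 4 spindle checkpoint genes, 3 had differences of at most 0.10 in size and Mad2l1 had wider ones. Bub1b, whose product BUBR1 inhibits the anaphase-promoting complex, was at 1972, 1874 and 2033 in the SEMA6A group, 1811, 2050 and 2141 in the SEMA3A group, 2085, 1774 and 2363 with both factors and 1930, 1867 and 2085 in control. Its groups overlapped throughout, with differences between 0.01 and 0.10. The checkpoint kinase Bub1 stayed between -0.08 and 0.09 and its partner Bub3 between -0.02 and 0.07. Mad2l1, the MAD2 gene, was at 10361, 4682 and 8469 in the SEMA6A group and between 8464 and 10250 on the other 9 arrays, and its differences of -0.37 ± 0.20 for SEMA6A against control and 0.37 ± 0.20 for both factors against SEMA6A take in that low array. Without it they were -0.0447 and 0.0384.

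Among the genes that trigger anaphase, Cdc20, the activator of the anaphase-promoting complex, was at 10505, 11761 and 9553 in the SEMA6A group, 8177, 8279 and 8998 in the SEMA3A group, 10966, 10485 and 10869 with both factors and 8809, 10504 and 9250 in control. Every array with both factors lay above every SEMA3A array. That difference was 0.33 ± 0.086 (95% interval 0.15 to 0.52, unadjusted p = 0.00197, adjusted p = 0.402). SEMA3A against control was -0.18 ± 0.086, or -0.11 without control replicate 2, and those groups overlapped in the deposited signals though not after normalization. Ube2c, the ubiquitin-conjugating enzyme of the same complex, was at 13705, 8633 and 12746 in the SEMA6A group, 12724, 13851 and 13314 in the SEMA3A group, 13057, 13619 and 13696 with both factors and 12030, 12809 and 13575 in control. Without SEMA6A replicate 2 its arrays would span 12030 to 13851.

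Pttg1, the gene of securin, which holds separase in check, was at 5560, 9082 and 6231 in the SEMA6A group, 6387, 5993 and 6155 in the SEMA3A group, 5036, 6230 and 5438 with both factors and 5981, 5082 and 6253 in control. Its highest array was SEMA6A replicate 2, and the difference of both factors from SEMA6A was -0.31 ± 0.16 (adjusted p = 0.452). Without that array it was -0.0876. Espl1, the separase gene, had differences between -0.11 and 0.06.

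Centromere and kinetochore genes included the largest single difference from control among the brightest probe sets. Nuf2, a subunit of the NDC80 complex that binds spindle microtubules, was at 2134, 2087 and 2070 in the SEMA6A group, 1796, 1877 and 2069 in the SEMA3A group, 2330, 2635 and 2571 with both factors and 1617, 2143 and 1722 in control. All 3 arrays with both factors stood above the other 9. The difference from control was 0.47 ± 0.11 (95% interval 0.24 to 0.71, unadjusted p = 7.6e-04, adjusted p = 0.793), from SEMA3A 0.39 ± 0.11 (adjusted p = 0.402) and from SEMA6A 0.26 ± 0.11 (adjusted p = 0.424). Ndc80, its partner in that complex, was at 712, 773 and 670 in the SEMA6A group, 811, 757 and 781 in the SEMA3A group, 616, 650 and 738 with both factors and 798, 718 and 829 in control. It ran the other way, with both factors below SEMA3A on every array, by -0.21 ± 0.11. Spc25, another subunit, had differences between -0.15 and 0.21.

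Cenpa, the histone that marks centromeres, was at 6618, 6385 and 6581 in the SEMA6A group, 6717, 6969 and 6522 in the SEMA3A group, 7196, 5992 and 7128 with both factors and 5941, 6843 and 5834 in control. Its groups overlapped in every pair. The kinetochore motor gene Cenpe had differences between -0.08 and 0.03, and Cenpf, a large kinetochore protein, between -0.17 and 0.20.

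Of the spindle motors, Kif11, the kinesin that pushes spindle poles apart, was at 1659, 1402 and 1474 in the SEMA6A group, 1601, 1482 and 1413 in the SEMA3A group, 1783, 1661 and 1654 with both factors and 1708, 1823 and 1859 in control. Either factor alone lay below every control array, and both factors together overlapped control. The differences from control were -0.24 ± 0.096 for SEMA6A, -0.25 ± 0.096 for SEMA3A and -0.06 ± 0.096 for both. Kif2c, a kinesin that takes microtubule ends apart, was at 1382, 1639 and 1356 in the SEMA6A group, 1161, 1134 and 1290 in the SEMA3A group, 1562, 1355 and 1568 with both factors and 1190, 1348 and 1075 in control. The groups whose tumour cells overexpressed SEMA6A lay above control on every array, by 0.28 ± 0.12 for SEMA6A alone and by 0.33 ± 0.12 for both factors. The other 2 probe sets of Kif2c ran the other way for SEMA6A, at -0.39 and -0.82, and had -0.18 and 0.01 for both factors. The 3 values for SEMA6A were 0.20, -0.0498 and -0.57 without its replicate 2.

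Nusap1, which bundles spindle microtubules, was at 6765, 3647 and 5808 in the SEMA6A group, 5599, 5933 and 6140 in the SEMA3A group, 5843, 5677 and 5794 with both factors and 6830, 7476 and 6778 in control. Control was the highest set on every array. Its difference for SEMA6A against control was -0.42 ± 0.16, the most negative of any mitosis gene in that comparison. It was -0.16 without SEMA6A replicate 2. The chromokinesin gene Kif4 and Tpx2, which activates Aurora A on the spindle, stayed between -0.09 and -0.01 and between -0.10 and 0.17.

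**Figure D2:**
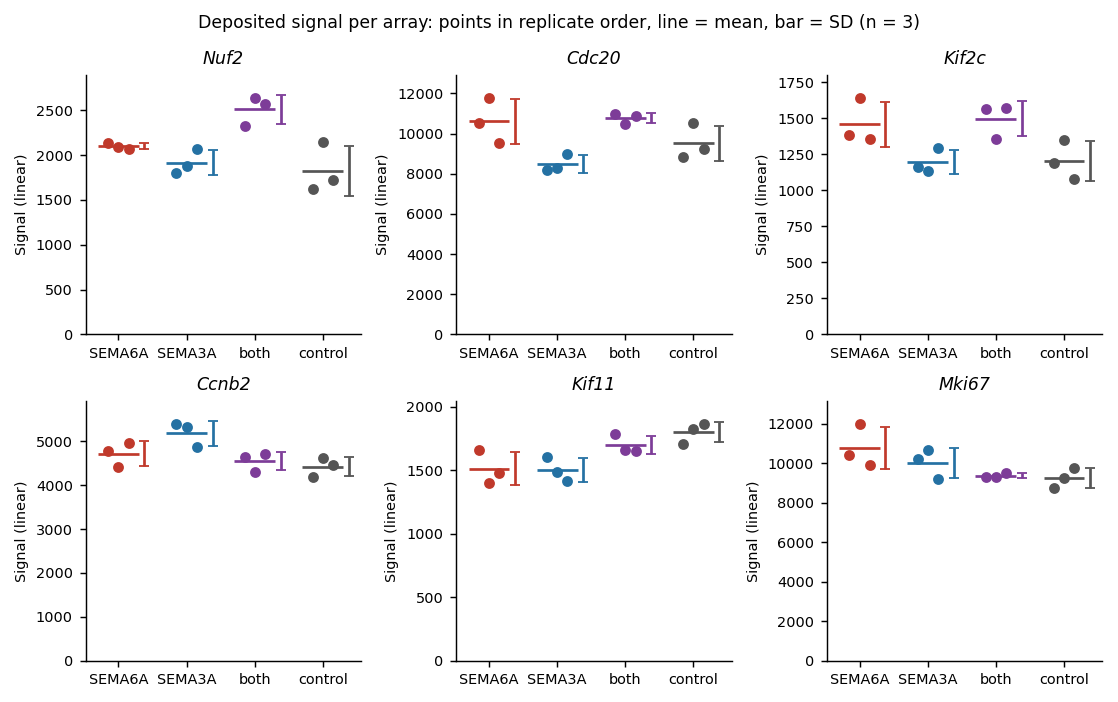
Deposited linear signal (vertical axes from 0) of 6 mitosis genes in the 4 groups, with 1 point per array, the group mean as a line and its SD as a bar (n = 3). Nuf2 with both factors lies above its other 9 arrays, Ccnb2 with SEMA3A lies above control, and Kif11 with either factor alone lies below control.

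Condensin folds chromosomes for segregation. Its ATPase gene Smc2 was at 7327, 4726 and 5743 in the SEMA6A group, 5733, 5820 and 6947 in the SEMA3A group, 6631, 6931 and 7175 with both factors and 7075, 7110 and 7399 in control. The difference of SEMA6A from control was -0.30 ± 0.12, with overlapping groups, and -0.15 without SEMA6A replicate 2. Ncapg, a condensin I subunit, was at 1924, 1511 and 1792 in the SEMA6A group, 1892, 1831 and 1855 in the SEMA3A group, 1844, 1913 and 2019 with both factors and 1768, 1874 and 2009 in control. Its groups overlapped in all pairs with control. Ncaph, the kleisin that closes the condensin I ring, was at 2008, 2968 and 2206 in the SEMA6A group, 1881, 2094 and 2249 in the SEMA3A group, 2730, 2726 and 2689 with both factors and 2116, 2467 and 2031 in control. With both factors it lay above every control and SEMA3A array, by 0.32 ± 0.13 and 0.38 ± 0.13 (adjusted p = 0.9995 and 0.404). The partner ATPase Smc4 lay between -0.12 and -0.01 and the subunit Ncapd2 between -0.09 and -0.0023.

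Among the genes of the midzone and of cytokinesis, Ect2, the exchange factor that activates RhoA at the cleavage furrow, was at 2133, 2461 and 1879 in the SEMA6A group, 1798, 1711 and 1905 in the SEMA3A group, 2301, 2160 and 2416 with both factors and 2018, 2308 and 1549 in control. All arrays with both factors exceeded all SEMA3A arrays, by 0.34 ± 0.14. Anln, the scaffold of the contractile ring, was at 1237, 1050 and 1271 in the SEMA6A group, 1149, 1186 and 1240 in the SEMA3A group, 1358, 1335 and 1433 with both factors and 1226, 1360 and 1176 in control. Its difference of both factors from SEMA6A was 0.23 ± 0.10 (adjusted p = 0.424). It was 0.14 without SEMA6A replicate 2 (adjusted p = 0.77) and 0.0127 with the probe set of Anln that varied most. Kif20a and Kif23, motors of the central spindle, had differences between -0.12 and 0.17 and between -0.13 and 0.10. The midzone bundler Prc1 lay between -0.06 and 0.09, and Racgap1, the partner of Kif23 in centralspindlin, between -0.18 and 0.03.

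Foxm1 and Mybl2 encode transcription factors that switch on many of the genes above in G2. Foxm1 was at 448, 173 and 417 in the SEMA6A group, 364, 394 and 436 in the SEMA3A group, 449, 451 and 450 with both factors and 418, 395 and 438 in control. The value of 173 stood apart from the other 11, which spanned 364 to 451. Mybl2 was at 1177, 969 and 910 in the SEMA6A group, 842, 899 and 1116 in the SEMA3A group, 1196, 972 and 1158 with both factors and 1103, 1093 and 1044 in control. Its difference of both factors from SEMA3A was 0.24 ± 0.13, with overlapping groups.

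Set against control, SEMA6A overexpression in the tumour cells left the mitosis genes spread around 0. Of the 47, 19 had a difference above 0 and the median was -0.0404, against 0.0194 over all genes. At an unadjusted p under 0.05 there were 5 of them (10.5% of all genes): Kif2c and Mki67 above control (6.53%), and Nusap1, Kif11 and Smc2 below (3.92%). Every array lay above control for 3 (Mki67, Kif2c and Prc1; 7.36% of all genes) and below it for 2 (Kif11 and Nusap1; 4.77%). These shares are near those of all genes. Prc1 did not separate in the deposited signals. Without SEMA6A replicate 2 the unadjusted count was 1 (4.88% of all genes) and the median -0.002. All 47 differences then lay between -0.18, for Kif11, and 0.22, for Nuf2. The 2 remaining SEMA6A arrays lay above control for 5 genes (11.3% of all genes) and below it for 2 (8.41%). Without SEMA6A replicate 1 Nusap1 and Smc2 passed the adjusted threshold, at -0.60 (adjusted p = 0.0434) and -0.45 (adjusted p = 0.037), among 4.55% of all genes. Without replicate 2, the array of higher Gapdh ratio, the same differences were -0.16 and -0.15 (adjusted p = 0.878 for both).

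With SEMA3A against control 15 of 47 differences were above 0, and their median was -0.0686, against 0.0075 over all genes. At the unadjusted threshold 2 were found (8.74% of all genes), Ccnb2 above control (4.87%) and Kif11 below (3.87%). Every SEMA3A array lay above control for Ccnb2 alone of the 47 (9.92% of all genes). It lay below control for 6, namely Cdc20, Cenpf, Kif11, Nusap1, Smc2 and Ncapd2 (7.31% of all genes). Without SEMA6A replicate 2, an array of neither group, the unadjusted count was 5 (14% of all genes).

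With both factors against control 27 of 47 differences were above 0, and the median was 0.0433, against 0.0119 over all genes. Nuf2, Kif2c and Ncaph had an unadjusted p under 0.05 (3 of 47; 4.11% of all genes), all above control. The arrays with both factors exceeded control for 7 (Nuf2, Kif2c, Ncaph, Cdc25b, Birc5, Cdca8 and Foxm1; 8.55% of all genes) and lay below it for 3 (Nusap1, Smc2 and Ncapd2; 6.53%). Smc2 did not separate in the deposited signals. With arrays weighted by their fit, Nuf2 passed the adjusted threshold (0.49, adjusted p = 0.0482), as did 0.115% of all genes. Without SEMA6A replicate 2 the unadjusted count was 8 (6.8% of all genes).

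**Figure D3:**
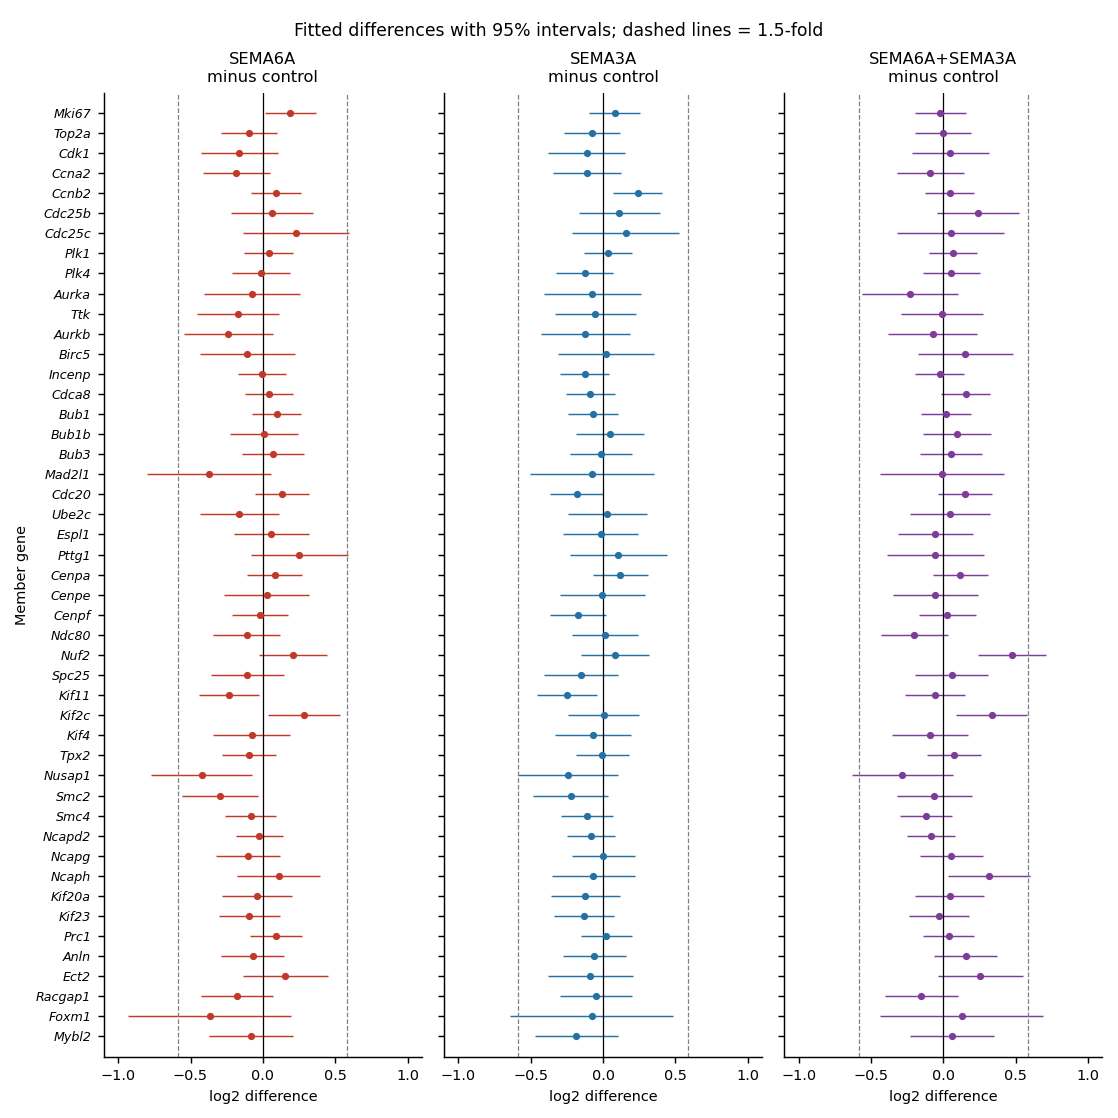
Fitted log2 differences from control (horizontal axes) of the 47 mitosis genes (rows) for SEMA6A, SEMA3A and both factors, with 95% intervals from limma and dashed lines at 1.5-fold. The intervals of 42, 45 and 43 of the 47 genes lie inside the dashed lines in the 3 panels, and Nuf2 is the point farthest right with both factors.

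These differences were measured more tightly than those of most genes. The 95% interval lay within 1.5-fold of control for 42 of 47 genes with SEMA6A, 45 with SEMA3A and 43 with both factors, as it did for 60.21%, 63.44% and 68.86% of all genes. The median standard error was 0.11 for the mitosis genes and 0.15 for all genes.

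Adding SEMA6A on top of SEMA3A gave the comparison with most separated arrays. Of the 47 differences 33 were above 0, and the median was 0.069, against 0.0071 over all genes. All arrays with both factors lay above all SEMA3A arrays for 13 genes, or 27.7%, against 10.3% of all genes. They were Cdk1, Cdca8, Bub1, Cdc20, Cenpf, Nuf2, Kif11, Kif2c, Ncaph, Kif20a, Anln, Ect2 and Foxm1. For Ccnb2 and Ndc80 they lay below (2 of 47; 10.7% of all genes). Of the 13, Anln, Bub1, Cenpf, Foxm1 and Kif2c had a probe set past the filter below SEMA3A, at -0.07, -0.17, -0.05, -0.14 and -0.04. All probe sets past the filter lay above it for Cdca8, Cdc20, Kif11 and Ncaph, and the rest had 1 each. The unadjusted threshold was met by 8 (11.2% of all genes), 7 above SEMA3A (Cdc20, Nuf2, Cdca8, Ncaph, Kif2c, Ect2 and Cenpf; 5.84%) and Ccnb2 below it (5.38%). The lowest adjusted p among them was 0.402. With array weights Nuf2, Ncaph, Cdca8, Kif2c and Cdc20 passed the adjusted threshold, at adjusted p-values from 0.029 to 0.036, among 620 of all genes (5.47%). Without SEMA6A replicate 2 the unadjusted count was 11 (17.5% of all genes).

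Both factors against SEMA6A alone gave 32 of 47 differences above 0, with a median of 0.086 against -0.0014 over all genes. This median was 0.0203 without SEMA6A replicate 2. Nuf2 and Anln were above SEMA6A and Mki67 below it at the unadjusted threshold (3 of 47; 11.5% of all genes). Arrays separated upward for Nuf2, Tpx2 and Anln (3 of 47; 6.75% of all genes) and downward for Mki67 alone (7.31% of all genes). Foxm1 had the largest difference, 0.49 ± 0.26, with the low value of 173 among its SEMA6A arrays. Without that array it was 0.068, and the differences of the 47 lay between -0.31, for Aurka, and 0.37, for Ncaph. The unadjusted count was then 5 (6.22% of all genes), and the arrays separated upward for 7 (12%) and downward for 5 (11.4%).

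The interaction asks whether the effect of both factors differs from the sum of each alone. Its median over the 47 was 0.175, against -0.0037 over all genes, and it was 0.089 without SEMA6A replicate 2. At the unadjusted threshold 4 of 47 were found, against 18% of all genes. Kif11 (0.43 ± 0.14, adjusted p = 0.197) and Smc2 (0.46 ± 0.17, adjusted p = 0.213) were above 0. Mki67 (-0.29 ± 0.11, adjusted p = 0.231) and Ccnb2 (-0.29 ± 0.11, adjusted p = 0.225) were below 0. On the brightest probe sets of Kif11 and Smc2 each factor alone was further below control than both together. The other probe sets of Smc2, in falling order of signal, had -0.49, -0.58, -0.38 and -0.27 against control with both factors. With SEMA6A they had -0.22, -0.82, -0.56 and -0.19, and with SEMA3A -0.44, -0.94, -0.54 and 0.04. With array weights Kif11, Smc2, Ccnb2, Mybl2 and Spc25 passed, among 1847 of all genes (16.3%). Without SEMA6A replicate 1 Kif11, Smc2 and Cdk1 passed, among 11.4% of all genes. Without SEMA6A replicate 2 the unadjusted count was 7 (15.3% of all genes) and none passed after adjustment. These 6 comparisons share arrays and are not independent of each other.

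Which probe set stands for a gene mattered. More than 1 probe set passed the filter for 32 of the 47 genes, 99 in all. All probe sets of a gene had the same sign in 17 of 32 genes for SEMA6A against control, 16 for SEMA3A against control, 13 for both factors against control, 16 for both against SEMA3A and 18 for both against SEMA6A. On SEMA6A replicate 2, 7 genes (Bub1b, Bub3, Cdc20, Kif2c, Ncapg, Pttg1 and Ttk) had probe sets more than 0.25 above and more than 0.25 below their own means. The brightest probe set of Pttg1 was 0.62 above and the next 0.71 below. For Kif2c the brightest was 0.30 above, and the others were 0.89 and 0.99 below.

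Some of the differences above were seen by 1 probe set only. For both factors against SEMA3A the second probe set of Ncaph, with a mean signal of 1343, had a difference of 0.0159, where the brightest had 0.38. The other probe sets of Cdc20 had 0.08 and 0.29, on the side of the brightest at 0.33. Those of Kif2c had -0.04 and 0.52. All 3 probe sets of Kif11 lay below control with SEMA6A (-0.24, -0.28 and -0.75, or -0.18, -0.16 and -0.71 without replicate 2) and with SEMA3A (-0.25, -0.24 and -0.63). With both factors they differed in size, at -0.06, -0.22 and -0.53 against control, so only the brightest was close to it. Nuf2, Ccnb2 and Mki67 had 1 probe set each past the filter, so that no second reading was at hand.

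**Figure D4:**
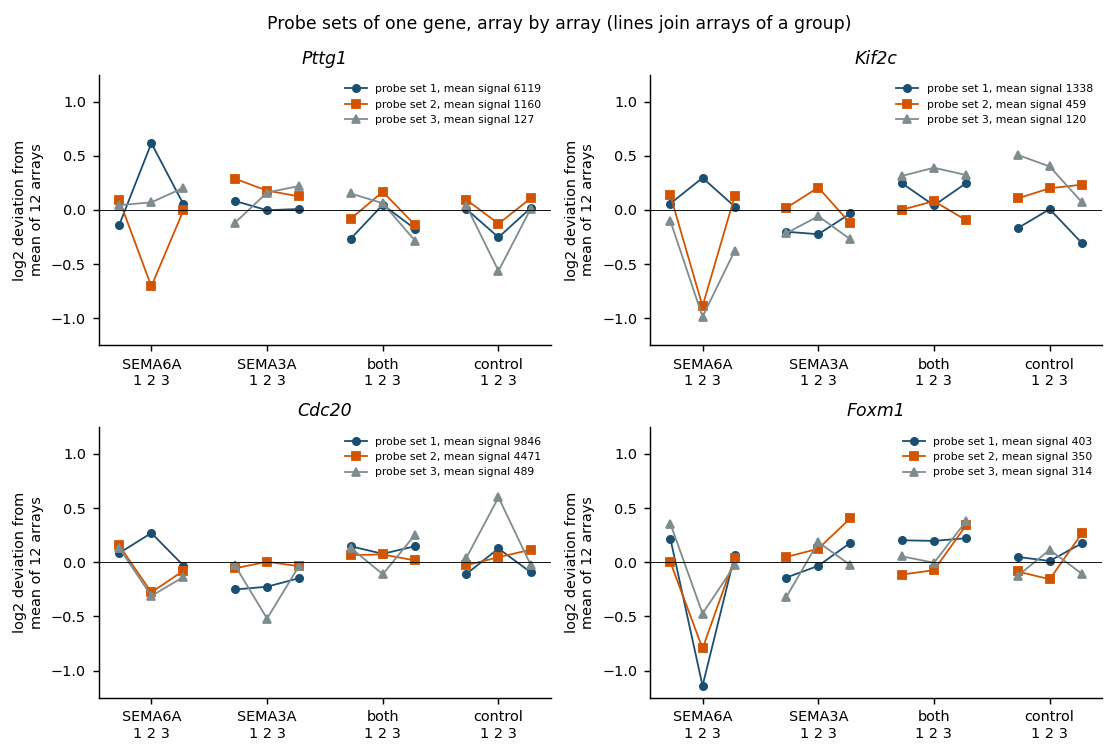
Log2 deviation from the mean of 12 arrays (vertical axes) for the 3 probe sets past the filter of Pttg1, Kif2c, Cdc20 and Foxm1, array by array (horizontal axes, replicates 1 to 3 of each group). On SEMA6A replicate 2 the probe sets of Pttg1, Kif2c and Cdc20 part in opposite directions, while all 3 of Foxm1 dip together.

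Across arrays the 47 genes were weakly correlated with each other. The median correlation between pairs of them was 0.11 across the 12 arrays and 0.18 across the 11 without SEMA6A replicate 2, a description over arrays that share their groups and scaling. Among 103 other mitotic genes that passed the filter, of 106 listed, none passed the adjusted threshold. At the unadjusted threshold 9, 7 and 2 of the 103 were found for SEMA6A, SEMA3A and both factors against control. These are 8.74%, 6.8% and 1.94% of them, where all genes had 10.5%, 8.74% and 4.11%. Their medians were -0.0505, -0.0806 and 0.0075. The counts were 2, 15 and 3 and the medians -0.0282, -0.0808 and 0.0157 without SEMA6A replicate 2. Kif22, a chromokinesin that pushes chromosome arms from the poles, had 0.57 ± 0.15 with SEMA6A (adjusted p = 0.475) and 0.55 ± 0.15 with both factors (adjusted p = 0.948) against control. Pbk, a mitotic kinase, had -0.57 ± 0.18 with SEMA3A (adjusted p = 0.551). For both factors against SEMA3A, 11 of the 103 were above and 1 below at the unadjusted threshold (11.7% in all, against 11.2% of all genes; 21 without SEMA6A replicate 2), led by Kif18a, a kinesin that damps chromosome movements, at 0.66 ± 0.18 (adjusted p = 0.402).

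Genes of DNA replication, which acts earlier in the cycle, had medians farther from 0 than the mitosis genes with either factor alone, and none of them passed. Over 44 of them the median was -0.268 with SEMA6A, -0.196 with SEMA3A and -0.0227 with both factors, all against control. The interaction median was 0.46. At the unadjusted threshold 15 were below control with SEMA6A and 3 above it, and 12 below and 2 above with SEMA3A. The shares below control were 34.1% with SEMA6A and 27.3% with SEMA3A, against 3.92% and 3.87% of all genes. Those above it were 6.82% and 4.55%, against 6.53% and 4.87% of all genes. Leaving out SEMA6A replicate 2 gave a SEMA6A median of -0.13, with 5 below and 2 above, and an interaction median of 0.266. With SEMA3A there were then 17 below and 2 above. Mcm6, a subunit of the replicative helicase, ran against the list, with 0.35 ± 0.13, 0.61 ± 0.13 and 0.67 ± 0.13 in the same order. Over 21 glycolysis and hypoxia genes the medians were 0.518, 0.551 and 0.128, and the first was 0.387 without SEMA6A replicate 2. On the arrays where glycolysis genes were high (SEMA6A replicates 2 and 3 and SEMA3A replicates 1 and 2) the mitosis genes averaged -0.1019, -0.03, -0.0749 and -0.037. On SEMA6A replicate 1 and SEMA3A replicate 3, where glycolysis genes were lower, they averaged 0.0574 and 0.0056. With both factors, where glycolysis genes were at -0.249 to -0.127, they averaged 0.0421, 0.0196 and 0.0804. In control, where glycolysis genes were lowest, at -0.3802 to -0.2114, they averaged -0.0213, 0.0437 and 0.0163. The part of the difference between arrays of the SEMA6A and SEMA3A groups in the results above was not tested.

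**Figure D5:**
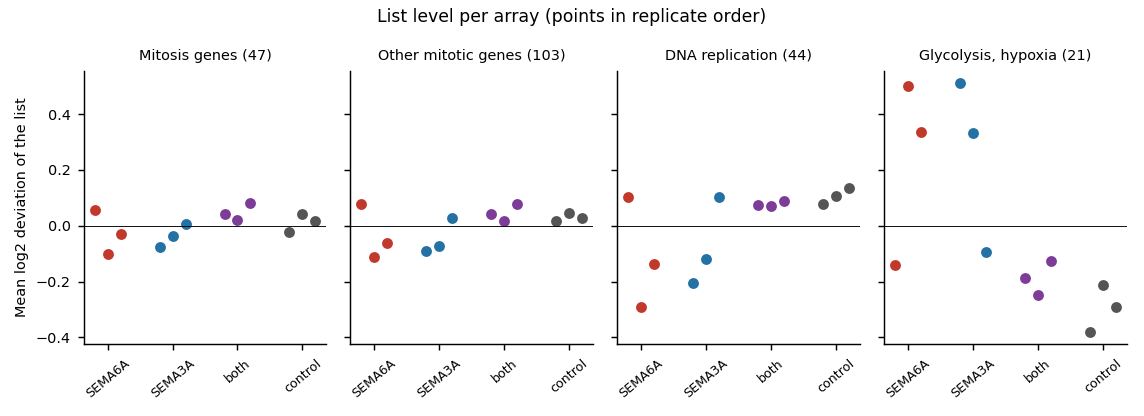
Mean log2 deviation of 4 gene lists (vertical axis, from each gene's mean over 12 arrays) on each array, by group. The mitosis genes stay between -0.1019 and 0.0804, while DNA replication genes reach -0.2929 and glycolysis genes 0.5111.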

How the data were processed

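Splenocyte RNA (6 µg of total RNA per array, per the labels' protocols) was hybridised to 12 single-colour mouse arrays. The authors deposited a linear intensity for each probe set. They used MAS5 (version not given in the sources used here), per the submitters' processing notes. Each array's mean, trimmed by 2% at each end, was 500 in the deposited intensities. Neither scanner files nor detection calls were used here. Precision is limited by the number of arrays.

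Of 45101 probe sets 64 were controls. The platform annotation gave 34945 of the rest a single gene and 932 several, and 9160 were absent from it. RefSeq identifiers (GRCm38.p6) matched 34741 and changed 0 symbols. Array medians differed by a factor of 1.26, over the limit of 1.25, so arrays were quantile normalized after log2(signal + 16). Probe sets above their array's median on at least 3 arrays were kept (24366), and the one with the highest mean stood for each of 11325 genes. For each gene, limma 3.58.1 (R 4.3.3) fitted a mean per group to the 12 arrays with a trended prior, with 8 residual degrees of freedom and 5.14 from the prior. Benjamini-Hochberg adjustment ran over all genes, with a threshold of 0.05. With 3 arrays against 3 an exact permutation test of a single value cannot go below 0.1, so none was used. The fit was tested on simulated data.

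The members, roles and lists were chosen with earlier results of these data known. Genes given with all signals are a panel of 1 or more per role, the 2 brightest and 2 dimmest, and those of smallest p in each direction of each comparison. Further genes were chosen after their values were seen. Promoters were searched in Python 3.11.15 and plots drawn with matplotlib 3.10.9. The fit was repeated on signals not normalized further, with a pseudocount of 1 or 64, with no dim filter or one at the 75th percentile, with another probe set per gene (largest interquartile range), on the compared arrays alone, with a replicate block, with a flat prior, with array weights, and without each array.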

Additional observations from a re-analysis of the deposited data

How the results depend on the processing

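No mitosis gene passed in any of the 6 comparisons, and this count of 0 held without further normalization, with pseudocounts of 1 and 64, without a filter or with the 75th percentile, with the largest-range probe set of each gene (by interquartile range), with only the arrays compared, without a prior trend and with the replicate block. With array weights the counts were 1 for both factors against control, 5 for both against SEMA3A and 5 for the interaction. Leaving out each array in turn gave 0 to 2 genes for SEMA6A against control and 0 to 3 for the interaction, and 0 in the other comparisons. The 0.0533 replicate SD of the members' median level served as the limit for a moved median. The interaction median was 0.0741 with the largest-range probe sets, and 0.089 to 0.189 when each array was left out. The median of both factors against SEMA6A was 0.0203 to 0.1049 in the same way.

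Of 682 recomputed differences of single genes 665 kept their direction and side of the threshold, 13 passed newly, all with array weights or without SEMA6A replicate 1, and 4 reversed. All 4 came with the largest-range probe sets: Kif2c and Nusap1 for SEMA6A against control at -0.8157 and 0.3506, Nusap1 for both factors against control at 0.8739, and Pttg1 for both against SEMA6A at 0.1868. These probe sets had mean signals of 120.3 for Kif2c, 44.4 for Nusap1 and 1160 for Pttg1. Otherwise the cause was not tested. With the replicate block the 6 counts stayed at 0. The medians, at -0.0404, -0.0686, 0.0433, 0.069, 0.086 and 0.175, could not move, because every group holds the same replicate numbers. Deviations of arrays with the same number correlated at -0.3573 to 0.1416 (median -0.0768) over 18 pairs, 1 of them over 0.1. Those with different numbers correlated at -0.2262 to 0.4211 (median 0.016) over 36 pairs, 6 of them over 0.1. With 3 arrays per group such correlations cannot decide whether the numbers pair the samples, and the labels do not say.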
